A study of Mus musculus with 12 samples.

Results

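The 39 Hox genes of the mouse were followed in newborn lung and liver. They were taken as every row of the deposited gene tables whose symbol is Hoxa, Hoxb, Hoxc or Hoxd followed by a paralog number, which gave 39 of 24421 listed genes. Hox genes encode homeodomain transcription factors that lie in clusters, and the order of the genes along a cluster follows the order of their expression along the body axis. Genes with a low paralog number are known for the hindbrain and throat, those with middle numbers for the neck and chest, and those with high numbers for the loins, tail and limbs. In the lung the Hox genes of the middle numbers, Hoxa5 and Hoxb5 above all, are known from the mesenchyme around the branching airways, and in the fetal and newborn liver several Hoxa and Hoxb genes are known from blood cell precursors.

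RNA was sequenced from lung and liver of newborn mice harvested 30 to 60 minutes after birth. Wild-type (WT, Man1a2+/+) and null (Man1a2-/-) pups came from breeding Man1a2+/- mice of the Man1a2tm1.1Ahe line, which lacks exon 2 of Man1a2, a gene for a Golgi enzyme that trims N-linked sugars, in every cell. The 4 groups, WT lung, null lung, WT liver and null liver, held 3 libraries each, 12 in all, with totals of 26759463 to 42914295 counts per library. The groups came from 3 pups of each genotype according to the methods of the study, but the labels do not say which lung and which liver were of 1 pup, and the p-values measure only the spread between these libraries. Levels are given in CPM, the counts of a gene per 1000000 counts of the library total, which was scaled by trimmed means of M values (TMM), and where genes are compared with each other as CPM per kilobase of exon.

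Man1a2 itself had 105, 75.5 and 107 CPM in WT lung against 42.5, 49.8 and 50.2 in null lung, and 87.0, 54.2 and 68.6 CPM in WT liver against 53.7, 48.2 and 50.2 in null liver, so the groups did not overlap in either tissue. Neither difference was called by edgeR with all libraries (lung log2 fold change of Man1a2 -1.01, adjusted p = 0.0614, and liver -0.47, adjusted p = 0.0809), and the lung one was without null lung 1 (-0.95, adjusted p = 0.0043). Null libraries 1 of both tissues stood apart from the rest. The library labelled null lung 1 went against its tissue label in most lung markers: Sftpc, which encodes surfactant protein C, had 26.4 CPM there and 11900 to 17400 in the other 5 lung libraries, and Nkx2-1, which specifies lung epithelium, had 17.7 CPM against 203 to 258. Its summed level of 7 lung mesenchyme markers was 196 CPM against 929 to 1130, while the sums of 10 skeletal muscle markers (10600 against 19.7 to 57.6 CPM), 8 heart muscle markers (17800 against 281 to 726) and 8 oesophagus and skin markers (2270 against 14.7 to 23.4) were higher. Of 8 lung epithelium markers, 7 lay below all 5 other lungs, and Foxj1 lay within them. Of the 7 mesenchyme markers, 6 lay below, and Tbx5 lay above (102 CPM against 55.6 to 100). The share of all genes lying outside the 5 other lungs is not given here. The library labelled null liver 1 kept its hepatocyte markers (180000 CPM against 141000 to 231000 in the other livers) and had in addition 8460 CPM of the skeletal muscle markers against 7.86 to 11. Values of these libraries are therefore given apart from the others. WT liver 2 had 40.9 CPM of Sftpc against 0.151 to 5.56 in the other livers.

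The Hoxa cluster (mm10 chr6:52155590-52260880, minus strand) holds 11 of the 39 genes, the Hoxb cluster (chr11:96194316-96368256, plus strand) 10, the Hoxc cluster (chr15:102921103-103036852, plus strand) 9 and the Hoxd cluster (chr2:74668310-74765142, plus strand) 9. Reads were found for 30 of the 39 genes, and 9 had none in any library, namely Hoxa11, Hoxb13, Hoxc10, Hoxc11, Hoxc12, Hoxc13, Hoxd11, Hoxd12 and Hoxd13. A count of 0 allows a level of up to 0.0538 to 0.126 CPM, depending on the library, taken as 3 counts, and these floors and the intervals below cover counting error only. Exons of Hoxa3, Hoxa4, Hoxa7, Hoxb2, Hoxb3, Hoxb5 and Hoxd3, among others, overlap antisense genes. On 1 strand, exons of Hoxd3 overlap with Hoxd4 and those of Hoxc5 with Hoxc10. Exons of Hoxa2, Hoxa3, Hoxd3, Hoxd4 and Hoxd10 also overlap genes outside the Hox family on the same strand. The split of reads within these pairs is thus uncertain.

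Promoter sequence is shown for the gene with the highest Hox level in WT lung and for the Hoxc gene with the most reads in the library labelled null lung 1. They are examples of a lung gene and of a gene nearly silent outside both null libraries numbered 1. Both lines give the 250 bases before the start site from RefSeq (build GRCm38.p6), 5′ to 3′ on the strand of the gene, Hoxa5 at chr6:52204588-52204837 (minus strand) and Hoxc4 at chr15:103034145-103034394 (plus strand). The capitals mark a run of 12 bases that both windows hold.
Hoxa5: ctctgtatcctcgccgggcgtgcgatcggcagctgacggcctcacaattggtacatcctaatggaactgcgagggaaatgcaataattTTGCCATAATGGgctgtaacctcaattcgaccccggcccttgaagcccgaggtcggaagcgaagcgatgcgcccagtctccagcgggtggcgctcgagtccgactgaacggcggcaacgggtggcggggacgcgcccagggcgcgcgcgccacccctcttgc
Hoxc4: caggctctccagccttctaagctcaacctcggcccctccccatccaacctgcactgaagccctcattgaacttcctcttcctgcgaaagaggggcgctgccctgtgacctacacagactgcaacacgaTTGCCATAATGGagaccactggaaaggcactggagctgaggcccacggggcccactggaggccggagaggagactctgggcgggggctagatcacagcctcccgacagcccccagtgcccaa

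The run TTGCCATAATGG starts 162 bases before the start in Hoxa5 and 122 bases before it in Hoxc4, and it was found, on either strand, in 2 of 32851 promoters (0.00609%), these 2. It was picked after the values were seen, among 274 pairs of Hox promoters, whose longest shared runs had 15 bases. RefSeq promoters were matched for 22 of the 39 genes (24 promoters). The Hoxa5 window held 28 CpG and the Hoxc4 window 8, beside a median of 12.5 over the Hox promoters and 6.0 over all promoters. CCAAT stood on either strand of 58.3% of the Hox promoters and 33.8% of all promoters, TATAAA in 16.7% and 12.4%, and TGATNNAT, the motif of a Hox protein with its Pbx partner, in 16.7% and 7.68%. A match is a description of these windows, not a bound site.

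In WT lung, the Hox code was that of the Hoxa and Hoxb clusters, with its peak at paralog 5. The summed Hox level was 168, 158.7 and 148 CPM in the 3 libraries (158.2 ± 10.01, SD, n = 3), from 9368, 6027 and 6710 reads, and 22, 19 and 21 of the 39 genes reached 3 reads. Of the summed CPM per kilobase, 65.63% ± 1.436 (SD, n = 3) came from Hoxa, 33.1% ± 1.136 from Hoxb, 1.206% ± 0.326 from Hoxd and 0.0453% ± 0.0132 from Hoxc. By position, paralogs 1 to 3 gave 29.3% ± 1.153, paralogs 4 to 8 gave 70.03% ± 1.343 and paralogs 9 to 13 gave 0.6833% ± 0.2001.

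**Figure D1:**
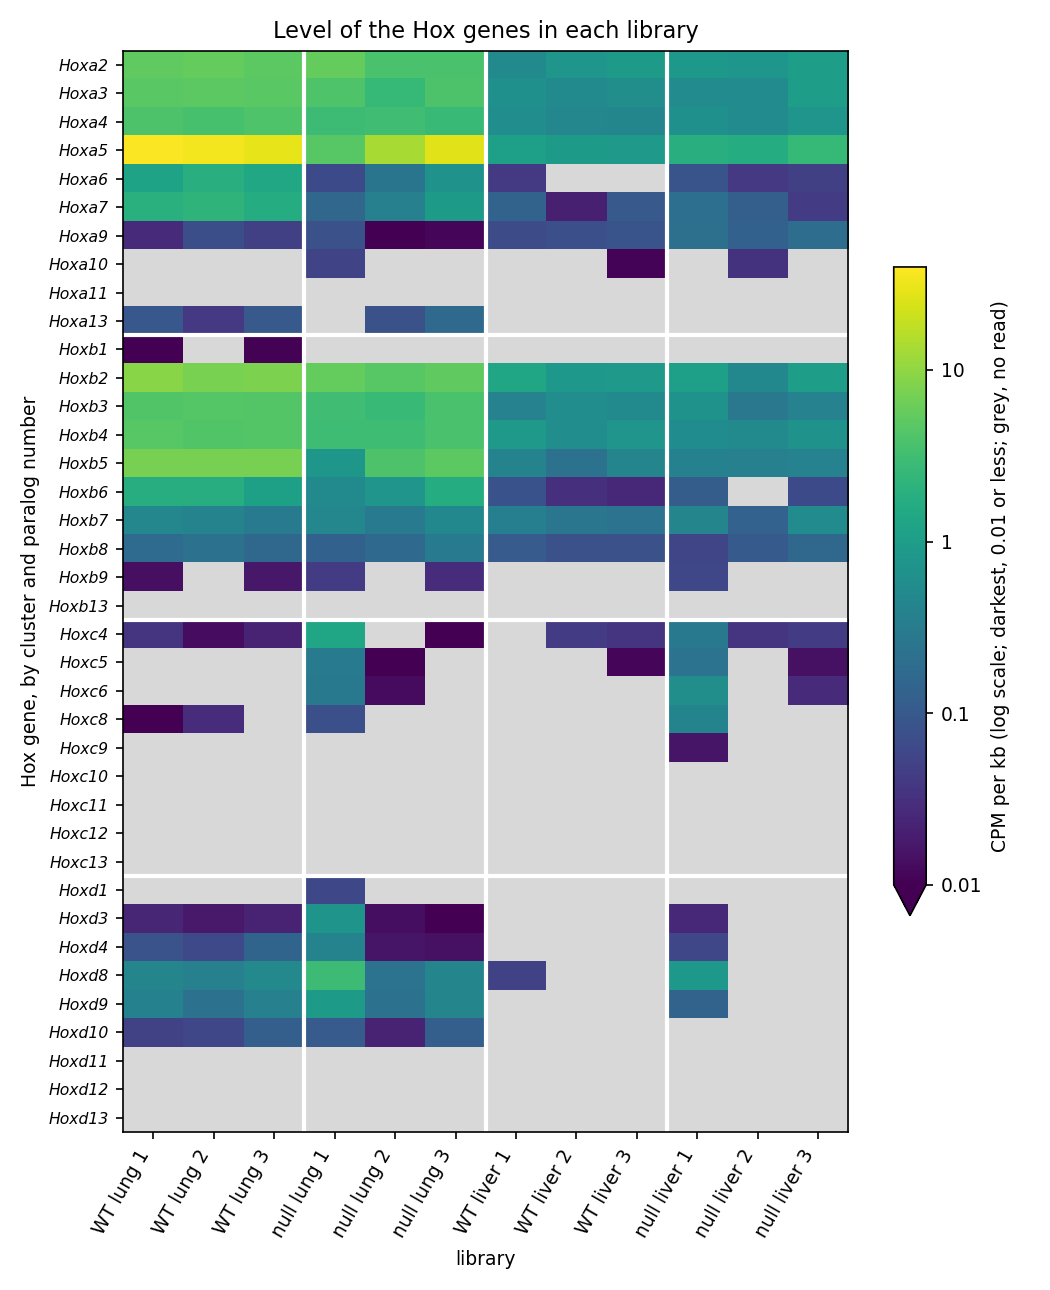
Level of the Hox genes shown (rows, by cluster and paralog number) in each of the 12 libraries (columns, by group), as CPM per kilobase of exon on a log colour scale, with grey for no read. The Hoxa and Hoxb rows of paralogs 2 to 6 are bright in lung and darker in liver, and Hoxc4 to Hoxc8 are brightest in the 2 null libraries numbered 1.

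Hoxa5, which patterns the lung mesenchyme and the neck vertebrae, had 71.8, 64.5 and 55.4 CPM in WT lung (63.88 ± 8.25, SD, n = 3). It took 45.0%, 43% and 39.9% of the summed Hox CPM per kilobase, the highest share of any Hox gene in each library. Its level per length, 34.03 CPM per kilobase, was followed by Hoxb2 with 8.076, Hoxb5 with 7.339, Hoxa2 with 5.256, Hoxa3 with 4.869, Hoxb4 with 4.4, Hoxb3 with 4.364 and Hoxa4 with 3.867. Hoxb2 and Hoxb5 differed by less than the SD of Hoxb2 (0.9013 CPM per kilobase, n = 3), and Hoxb4 and Hoxb3 differed by less than the SD between libraries (0.171 and 0.1633 CPM per kilobase). With coding length in place of exon length, Hoxa5 remained the highest with 78.86 CPM per kilobase and Hoxb5 came next with 17.23.

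Hoxb5, the paralog of Hoxa5 in the second cluster and also known from lung branching, was the most even of these genes, with 13.9, 13.8 and 13.9 CPM. Hoxb2, a hindbrain gene in the embryo, had 14.8, 12 and 12.6 CPM. Hoxb3 and Hoxb4, which are known from hindbrain and blood stem cells, had 14.8, 16.0 and 15.3 CPM and 11.7, 10.8 and 11.3 CPM.
The Hoxb genes above paralog 6 lay in WT lung at 0.606 CPM or below.
Hoxa2, which patterns the pharyngeal arches, had 9.20, 9.90 and 8.89 CPM. Hoxa3, needed for the thymus and parathyroid, had 12.5, 12.8 and 12.5 CPM. The Hoxa side fell off past Hoxa5, from 34.03 to 1.504 CPM per kilobase at Hoxa6 and 1.955 at Hoxa7 (3.89, 4.45 and 3.44 CPM), and Hoxa9, Hoxa10 and Hoxa13 lay at 0.237 CPM or below.

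The Hoxd genes of WT lung were Hoxd8 with 1.18, 1.03 and 1.35 CPM, Hoxd9 with 0.807, 0.474 and 0.794 CPM and Hoxd4 with 0.215, 0.158 and 0.375 CPM. Hoxd1 had no read there, and Hoxd3 had 4, 2 and 3 reads. The Hoxc cluster was close to silent, with Hoxc4 at 4, 1 and 2 reads, Hoxc8 at 1, 2 and 0 reads, and no read of Hoxc5, Hoxc6 or Hoxc9. Hoxa13, a gene known from limb, hindgut and genital buds, had 7, 2 and 6 reads in WT lung and 5 and 12 in null lung 2 and 3, with none in the library labelled null lung 1 and none in any liver.

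In WT liver the Hox genes lay far lower, and low paralog numbers held a larger share of the summed Hox level. The summed Hox level was 14.21, 11.89 and 13.14 CPM (13.08 ± 1.161, SD, n = 3), from 404, 288 and 384 reads. Hoxa gave 51.07% ± 2.845 and Hoxb 48.23% ± 2.845 of the summed CPM per kilobase (SD, n = 3). Paralogs 1 to 3 gave 49.2% ± 3.404, paralogs 4 to 8 gave 49.5% ± 3.703 and paralogs 9 to 13 gave 1.285% ± 0.307. The mean paralog number, weighted by CPM per kilobase, was 3.803, 3.594 and 3.662 in WT liver and 4.291, 4.302 and 4.237 in WT lung, so that the tissues did not overlap, and paralog 5 held 21.3%, 20% and 21.5% in liver against 53.7%, 52.1% and 49.8% in lung. These shares are parts of the same sum. Hoxa5 alone held 39.9% to 45.0% of it in WT lung, which lowers the share of every other gene there. How far the difference in shares goes beyond Hoxa5 was not tested.

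The order of the genes in WT liver was flatter. Hoxb2 led with 1.02 CPM per kilobase, followed by Hoxa5 with 0.9544, Hoxb4 with 0.739, Hoxa2 with 0.7284, Hoxa3 with 0.5807, Hoxa4 with 0.4969, Hoxb3 with 0.4937 and Hoxb5 with 0.3532. Hoxb2 and Hoxa5 differed by less than the SD of Hoxb2 (0.2782), as did Hoxb4 and Hoxa2 by less than theirs (0.1562 and 0.1859), and with coding length Hoxb4 came first with 2.528 CPM per kilobase and Hoxa5 next with 2.212. In CPM, Hoxa5 had 2.01, 1.69 and 1.68, Hoxb2 had 2.18, 1.36 and 1.44, and Hoxb4 had 2.29, 1.49 and 1.92.
No Hox gene exceeded 2.29 CPM in any WT liver. Hoxd8 had 4 reads in WT liver 1 and the Hoxd cluster no other read in the group. Hoxc4 had 0, 2 and 2 reads and Hoxc5 had 0, 0 and 1.

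**Figure D2:**
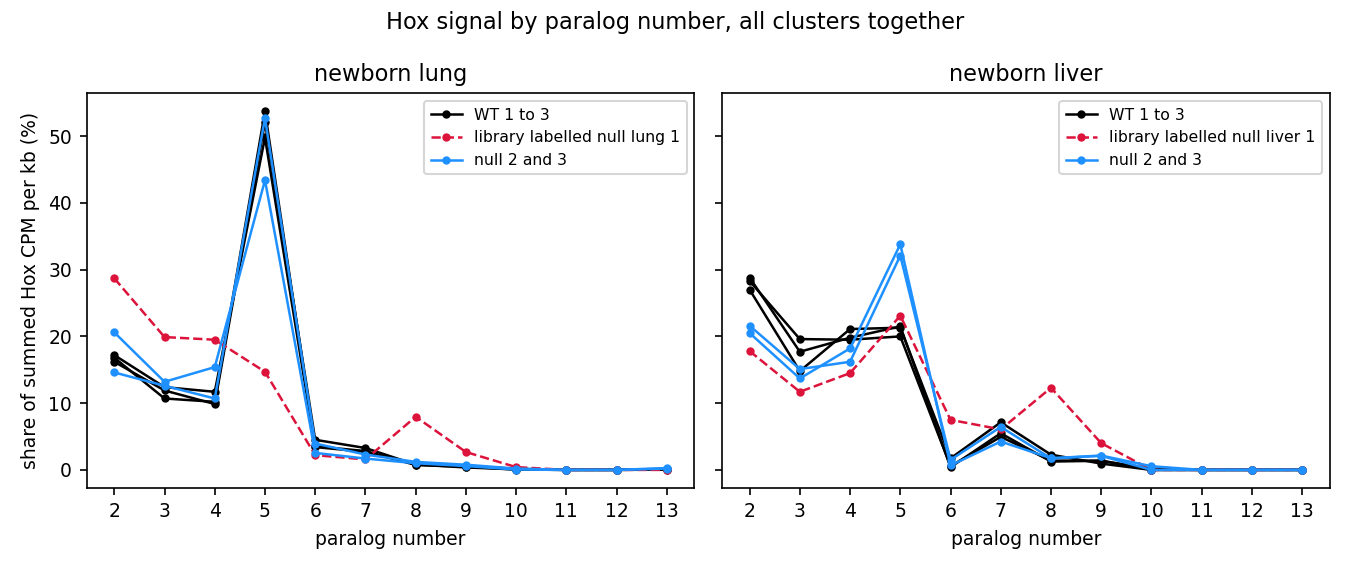
Share of the summed Hox CPM per kilobase (percent, vertical axis) held by each paralog number from 2 on (horizontal axis) in each library of lung (left) and liver (right), with WT in black, null libraries 2 and 3 in blue and null library 1 as a dashed red line. WT lung peaks at paralog 5 with 49.8% to 53.7%, WT liver at paralog 2 with 27% to 28.8%, and the library labelled null lung 1 holds 14.7% at paralog 5.

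Lung was then tested against liver in WT. After the filter on low counts, 16 Hox genes were tested, and 15 of them were called higher in WT lung (edgeR's quasi-likelihood test, Benjamini-Hochberg adjusted p below 0.05 and a fold change of at least 1.2), beside 39.8% of all 15635 genes tested. The filter asks for reads in 3 libraries, so a gene could pass on its lung level alone. The fitted log2 fold changes had a median of 3.09 (3.005 with a gene without liver reads at its bound), beside 0.04 over all genes tested. Without TMM, on total counts, these medians were 3.88 and 0.83, all 16 were called, and the calls over all genes went from 6227 higher and 5812 lower to 10133 and 2997. In bulk tissue, fewer cells of a type and less RNA per cell cannot be told apart.

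Hoxa5 was 35.2-fold higher in WT lung (log2 fold change 5.14 ± 0.15, SE, edgeR adjusted p = 5.90866e-09). Hoxb5 was 20.2-fold higher and Hoxa7 21-fold higher, Hoxb6 31.4-fold and Hoxd8 22.6-fold, while Hoxa2, Hoxa3, Hoxa4, Hoxb2 and Hoxb3 were 7.13-fold to 8.78-fold higher. In WT liver Hoxb6 had 3, 1 and 1 reads and Hoxd8 had 4, 0 and 0, so the ratios of Hoxb6 and Hoxd8 are imprecise. Hoxb4 was 5.86-fold higher and Hoxb8 was 2.12-fold higher. Within Hoxa and Hoxb the ratios were thus highest at paralogs 5 to 7 of Hoxa and 5 and 6 of Hoxb. Hoxa6 had 178 reads in WT lung and 1 in WT liver, a ratio of 105 with a 95% counting interval of 18.6 to 4160. Hoxd9, without a read in WT liver, was at least 6.25-fold higher in lung, taking 3 counts per library as the floor, and Hoxd4, which did not pass the filter, was at least 2.25-fold higher by the same floor. Hoxb7 was the gene not called, with 0.592, 0.527 and 0.375 CPM in WT lung, 0.457, 0.33 and 0.308 CPM in WT liver and a log2 fold change of 0.43 ± 0.33 (edgeR adjusted p = 0.255).

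The null libraries 2 and 3 kept a Hoxa and Hoxb code in both tissues. In lung the summed Hox level was 81.79 CPM in null lung 2 and 122 CPM in null lung 3, both below the 3 WT libraries, and 85.32 CPM in the library labelled null lung 1. Hoxa gave 60.0% and 65.2% in null lung 2 and 3 and 47.0% in the library labelled null lung 1, and Hoxb gave 38.7%, 33.1% and 34.9%. The mean paralog number was 4.044 in null lung 2 and 4.36 in null lung 3, one below and the other above the WT range of 4.237 to 4.302, and 3.872 in the library labelled null lung 1. Paralog 5 held 43.4% and 52.7% in null lung 2 and 3 and 14.7% in the library labelled null lung 1.

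In null liver 2 and 3 the summed Hox level was 12.52 and 18.75 CPM, the former within and the latter above the WT range of 11.89 to 14.21, and it was 22.32 CPM in the library labelled null liver 1. Paralogs 1 to 3 gave 38.6% and 40.0% in null liver 2 and 3, below the WT range of 45.5% to 52.2%, and paralog 5 gave 33.8% and 32.1%, above the WT range of 20% to 21.5%. Hoxa gave 68.4% and 63.8%, against 47.8% to 53.0% in WT, and Hoxb 31.1% and 35.3%, against 46.3% to 51.5%. In the library labelled null liver 1, paralogs 1 to 3 gave 32.5%, paralog 5 gave 23.1% and Hoxb 31.5%, on the same side of the WT ranges, while Hoxa gave 44.0%, below WT and not above it. The mean paralog number was 4.011 and 4.037 in null liver 2 and 3 and 4.693 in the library labelled null liver 1, all above the 3 WT livers. These shares and means are drawn from the same sum and are not separate changes. Hoxa5 alone held 27.7% and 27.6% of it in null liver 2 and 3. Its level there was 1.676 and 2.554 CPM per kilobase, against 0.8932 to 1.068 in WT liver. How far the shares differ beyond Hoxa5 was not tested.

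**Figure D3:**
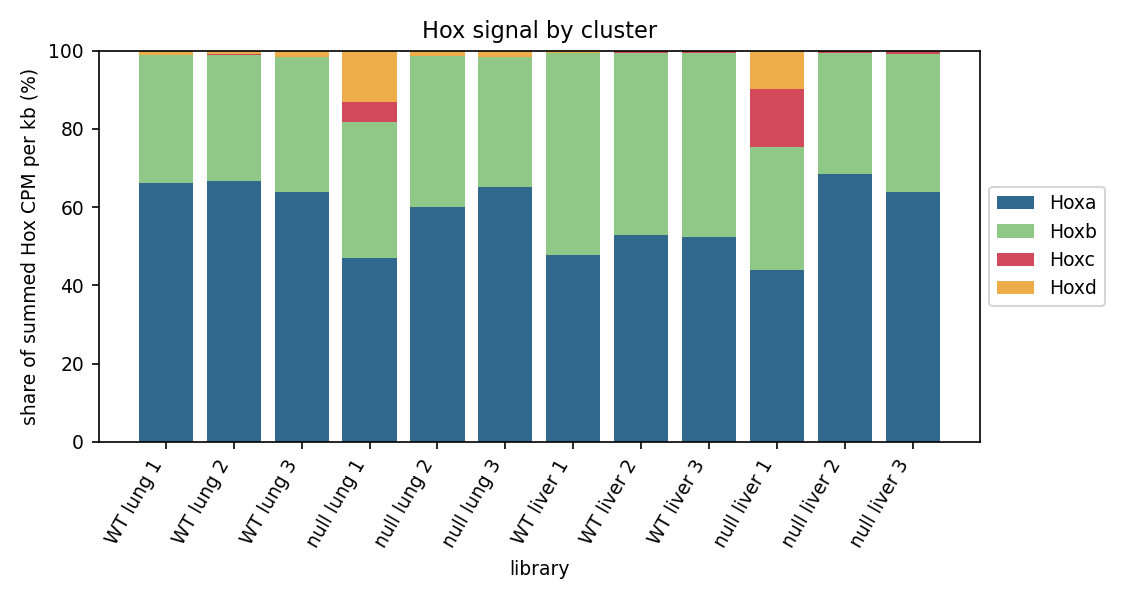
Share of the summed Hox CPM per kilobase (percent) held by the Hoxa, Hoxb, Hoxc and Hoxd clusters in each of the 12 libraries, as stacked bars. Hoxc and Hoxd together hold a visible share in null lung 1 (4.94% and 13.1%) and null liver 1 (14.6% and 9.88%), beside at most 0.901% for Hoxc and 1.67% for Hoxd in the other libraries.

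Lung against liver within the null mice gave 9 of 16 tested Hox genes called higher in lung by edgeR (beside 24.2% of all genes tested), and without both null libraries numbered 1 it gave 13 of 17 (beside 32.1%) and 1 lower. Hoxa5 was higher in null lung by 2.91 on the log2 scale (edgeR adjusted p = 0.0133), and by 3.21 without the libraries numbered 1 (adjusted p = 0.000267). Hoxa9, known from the posterior body axis and from blood stem and progenitor cells, had 0.256, 0.0202 and 0.0369 CPM in null lung 1 to 3 and 0.679, 0.420 and 0.631 CPM in null liver 1 to 3, without overlap. Its log2 difference, lung minus liver, was -2.53 (edgeR adjusted p = 0.0577), and it was called lower in lung without the libraries numbered 1 (-4.08, edgeR adjusted p = 0.00118) and with the replicate number as a block (-2.84, adjusted p = 0.0381). The block also brought Hoxd9 past the threshold (log2 difference 3.94, edgeR adjusted p = 0.0264 against 0.0704), for 11 calls in all. Null liver 2 and 3 held no read of any Hoxd gene.

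Null was compared with WT lung to ask whether loss of the enzyme changed the lung Hox code. With all 3 null libraries, no Hox gene of 17 tested was called by edgeR (beside 0.327% of all genes tested), 5 of the 17 had an unadjusted p below 0.05, and DESeq2 called 2 lower (beside 15.1% called in either direction by DESeq2), namely Hoxb2 (-0.63, DESeq2 adjusted p = 0.00966) and Hoxa7 (-1.99, DESeq2 adjusted p = 0.0193). Without the library labelled null lung 1, edgeR called 6 of 18 lower and none higher (beside 19.0% of all genes tested called lower), in a comparison of 2 null with 3 WT libraries. These 6 were Hoxa2, Hoxa6, Hoxa7, Hoxb2, Hoxb5 and Hoxd4. The median log2 fold change over the tested Hox genes was -0.43 with all libraries and -0.49 without that library, beside 0.06 and -0.01 over all genes tested.

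Hoxb5 had 1.53, 7.5 and 9.46 CPM in null lung 1 to 3, each below the 13.8 to 13.9 CPM of WT lung. It was lower by a log2 fold change of -0.72 ± 0.16 (SE) without the library labelled null lung 1 (edgeR adjusted p = 0.0119), and by -1.17 ± 0.60 with it (adjusted p = 0.276). Hoxb2 had 9.23, 7.5 and 8.54 CPM, also below every WT lung, and was lower by a log2 fold change of -0.72 without that library (edgeR adjusted p = 0.0126).
Both genes had null values that did not reach the WT range.
Hoxa7, a thoracic gene in the embryo, had 0.312, 0.748 and 1.83 CPM in null lung 1 to 3 and a log2 fold change of -1.60 (edgeR adjusted p = 0.0146 without null lung 1). Hoxa6, its neighbour, had 0.0568, 0.222 and 0.609 CPM against 1.08, 1.63 and 1.24 in WT, a log2 fold change of -1.64 (edgeR adjusted p = 0.0263 without null lung 1). Both null lung 2 values were lower than those of null lung 3, and all null values lay below WT.

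Hoxa2 had 10.02 CPM in the library labelled null lung 1, above every WT lung, and 6.63 and 6.44 CPM in null lung 2 and 3, below every WT lung, so its call (-0.52, edgeR adjusted p = 0.0312) rested on leaving that library out. Hoxd4 had 1.05 CPM in the library labelled null lung 1 and 0.0404 and 0.0369 CPM in the other null lungs, that is 37, 2 and 2 reads. Its log2 fold change turned from 0.54 with all libraries to -2.63 without that library (edgeR adjusted p = 0.0181). Hoxa5 had 8.77, 25.5 and 50.7 CPM in null lung 1 to 3, all below the WT range of 55.4 to 71.8, with log2 fold changes of -1.17 ± 0.58 (edgeR adjusted p = 0.261) and -0.75 ± 0.27 without that library (adjusted p = 0.065), neither of them called. Null lung 3 thus lay close to the lowest WT lung, and null lung 2 lay lower.

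In the raw separation of the groups, 9 of the 17 tested Hox genes lay below WT in every null lung with no overlap (Hoxa3, Hoxa4, Hoxa5, Hoxa6, Hoxa7, Hoxb2, Hoxb3, Hoxb4 and Hoxb5), beside 19.6% of all genes tested. Without the library labelled null lung 1 it was 12 of 18, beside 31.9%. With 3 libraries against 3 the smallest p of the exact permutation test is 0.1, so a gene's separation could not pass the threshold by itself. The summed lung mesenchyme markers were 929 to 975 CPM in WT lung and 1030 and 1130 CPM in null lung 2 and 3, above WT, while lung epithelium markers were 19400 to 22900 CPM in WT and 26500 and 19600 in null lung 2 and 3. Of the mesenchyme markers, Tbx2, Tbx3, Tbx4 and Tbx5 lay above WT in both, and Foxf1 and Fgf10 overlapped WT. Wnt2 lay below WT in both (32.0 and 21.4 CPM against 47.9 to 54.5). The part of these marker levels in the lung Hox values was not tested.

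**Figure D4:**
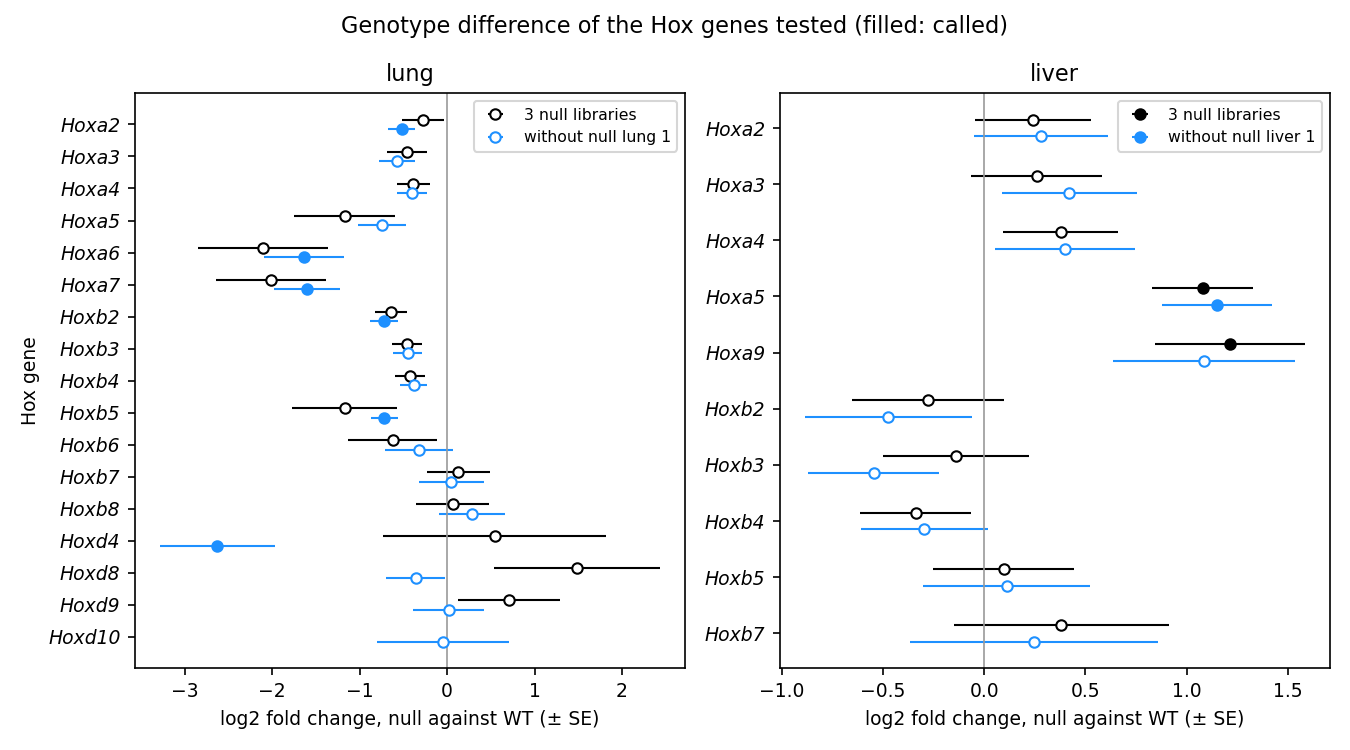
Log2 fold change of null over WT with its SE (horizontal axis) for the tested Hox genes shown (rows) in lung and in liver, from all libraries and with null library 1 left out, filled where called. In lung the called genes without null lung 1 lie between -2.63 and -0.52, and in liver Hoxa5 (1.08) and Hoxa9 (1.21) are called with all libraries.

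In liver 2 of 11 tested Hox genes were called by edgeR in null against WT, both higher (beside 26.9% of all genes tested). Hoxa5 had 3.47, 3.15 and 4.79 CPM in null liver 1 to 3 against 2.01, 1.69 and 1.68 in WT liver, 2.11-fold higher (log2 fold change 1.08 ± 0.25, SE, edgeR adjusted p = 0.0192). Hoxa9 had 0.679, 0.420 and 0.631 CPM against 0.211, 0.248 and 0.274, with a log2 fold change of 1.21 ± 0.37 (edgeR adjusted p = 0.0459). For both genes every null liver lay above every WT liver, as it did for 23.1% of all genes tested. Without the library labelled null liver 1, Hoxa5 was still called (1.15, edgeR adjusted p = 0.0205, 1 of 11 genes, beside 23.8% of all genes tested) and Hoxa9 was not (1.09, adjusted p = 0.113). Leaving out WT liver 1, WT liver 2 or WT liver 3 left no Hox gene called (Hoxa5 adjusted p = 0.0509, 0.066 and 0.0801 by edgeR).

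The 5 Hoxb genes tested in liver lay on both sides of 0, with log2 fold changes from -0.34 for Hoxb4 to 0.38 for Hoxb7, none called. Blood cell precursor markers summed to 836 to 906 CPM in WT liver and 976, 1050 and 706 CPM in null liver 1 to 3. The single markers went both ways: Klf1, Gata1 and Myb lay below WT in every null liver, and Mpo and Kit lay above. Klf1 had 44.1, 48.8 and 27.2 CPM against 59.8 to 82.9, and Mpo had 234, 271 and 206 against 136 to 179. Liver stellate cell and mesothelium markers summed to 207 to 240 CPM in WT against 686, 243 and 293 CPM in null liver 1 to 3. Of the 686 CPM, 453 were of Des, a muscle gene as well (13.3 to 15.2 CPM in WT), and Lrat and Lhx2, 2 other genes of that list, lay below WT in every null liver (7.62, 9.79 and 10.5 CPM of Lrat against 16.8 to 27.8). Reln, also of that list, lay above WT in every null liver (128, 155 and 187 CPM against 97.3 to 111). The part of these marker levels in the Hox values was not tested.

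Whether the genotype acted differently on the Hox genes of the 2 tissues was tested as an interaction over all 12 libraries. It gave 0 calls among 18 Hox genes by edgeR (beside 0.371% of all genes tested), with 4 at an unadjusted p below 0.05, and 1 by DESeq2, Hoxa5 (-2.24, DESeq2 adjusted p = 0.032). For Hoxa5 the log2 fold change of null over WT, lung minus liver, was -2.25 (edgeR adjusted p = 0.187). Without both null libraries numbered 1, Hoxa5 (-1.89 ± 0.41, SE, edgeR adjusted p = 0.0275) and Hoxa9 (-3.38 ± 0.82, adjusted p = 0.0392) were called, beside 5.18% of all genes tested. Hoxa9 had low counts in lung, with 0.0896, 0.237 and 0.154 CPM in WT lung and 0.0202 and 0.0369 CPM in null lung 2 and 3.

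The Hoxc and Hoxd clusters set both null libraries numbered 1 apart. The 10 other libraries held 24 Hoxc reads of 34644 Hox reads, 0 to 5 per library. The library labelled null lung 1 held 141, which was 4.69% of its Hox reads (95% exact binomial interval 3.96% to 5.51%), and the library labelled null liver 1 held 80, or 13.5% (10.9% to 16.5%). Hoxd reads numbered 477 in the former (15.9%, 14.6% to 17.2%) against 62 to 132 in the other lungs, and 74 in the latter (12.5%) against 0 to 4 in the other livers.

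The 2 libraries did not hold the same Hoxc genes in the same proportion. In the library labelled null lung 1, Hoxc4, which patterns the lower neck, took 63.8% (55.3% to 71.7%) of the Hoxc reads, Hoxc5 took 21.3%, Hoxc6 11.3% and Hoxc8 3.55%, for a mean Hoxc paralog number of 4.58. In the library labelled null liver 1, Hoxc6 took 31.2%, Hoxc8, a gene of the lower chest, 26.2%, Hoxc5 22.5% and Hoxc4 18.8% (10.9% to 29.0%), for a mean of 5.96. The intervals of Hoxc4 did not meet, and the liver library held the higher paralogs. Hoxc10, whose exons overlap those of Hoxc5, had no read.

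Within Hoxd, Hoxd8 gave 283 of the 477 reads of the library labelled null lung 1 and 60 of the 74 reads of the library labelled null liver 1. Hoxd8 had 8.04 CPM in the library labelled null lung 1 against 0.647 to 1.35 in the other lungs, and 2.26 CPM in the library labelled null liver 1 against 0 to 0.141 in the other livers. Hoxd3 had 76 reads in the library labelled null lung 1 against 1 to 4 in the other lungs, and Hoxd1 had 4 against none. Of the 39 genes, 14 in the library labelled null lung 1 lay above all 5 other lungs, 8 lay below, 7 lay within and 10 had no read in lung. The 8 below were Hoxa5, Hoxa6, Hoxa7, Hoxa13, Hoxb4, Hoxb5, Hoxb6 and Hoxb8, so the genes of the WT lung peak were low there. In the library labelled null liver 1, 16 genes lay above all 5 other livers, 1 below (Hoxb8), 9 within and 13 had no read in liver. Of these 16, Hoxc9 rested on 1 read, Hoxa6 and Hoxd3 on 2 each, and Hoxb6, Hoxb9 and Hoxd4 on 4 each. The share over all genes is not given here, so these counts do not set the Hox genes apart from other genes. Over the genes past the filter, the library labelled null lung 1 correlated with the other lungs at 0.8424 to 0.863. The other lungs reached 0.9894.

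**Figure D5:**
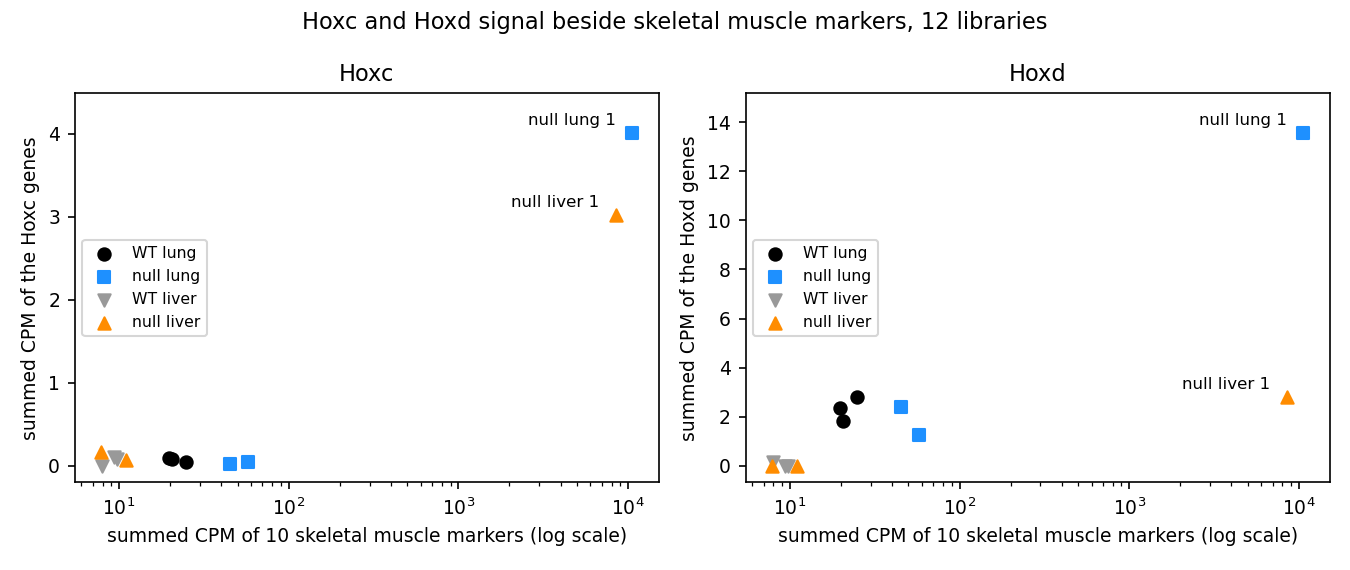
Summed CPM of the Hoxc genes and of the Hoxd genes (vertical axis) against the summed CPM of 10 skeletal muscle markers (horizontal axis, log scale) in each of the 12 libraries. The null libraries numbered 1 sit at 10600 and 8460 CPM of muscle markers and hold the highest Hoxc levels, while the other 10 sit at 57.6 CPM or below.

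Markers of several other tissues moved with these Hox values, with 10 of 10 skeletal muscle markers above all other libraries of the tissue in both libraries. Cartilage and bone markers summed to 375 CPM against 7.23 to 13.9 in the other lungs and 626 against 2.10 to 6.85 in the other livers. Of these 8 markers, 6 lay above all other lungs but 3 above all other livers, where Col2a1, a cartilage collagen, made up 548 of the 626 CPM and Col10a1, Ibsp and Sp7 were at 0. In the library labelled null lung 1, 8 of 8 heart muscle, 8 of 8 oesophagus and skin, 7 of 8 nerve and glia, 6 of 7 thymus and T cell and 3 of 3 brown fat markers also lay above all other lungs. In the library labelled null liver 1 it was 5 of 8 heart muscle, 3 of 8 nerve and glia, 2 of 8 oesophagus and skin, 2 of 7 thymus and T cell and none of 3 brown fat markers. The share of all genes lying above the other libraries is not given here, so these counts alone do not set the markers apart from other genes. The part of these cells in the Hoxc and Hoxd reads was not tested.

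The genes that act with or on Hox genes were described from lists. Of the 9 TALE cofactors, the homeodomain partners that bind DNA with Hox proteins, all 9 were called higher in WT lung than in WT liver (39.8% of all genes tested were called higher), with the largest log2 differences for Pknox2 (4.30) and Pbx4 (2.10), and with Meis2 at 1.41. Within the null mice 7 of 9 were called higher in lung (beside 24.2% of all genes tested), and 5 of 9 without null liver 1 (beside 18.8%). Between null and WT liver 1 of 9 was called (beside 26.9%), Meis1, lower by a log2 fold change of -0.82 (edgeR adjusted p = 0.0186), and between null and WT lung none was called by edgeR with all libraries (2 at an unadjusted p below 0.05) and 2 lower without the library labelled null lung 1 (beside 19.0% called lower), Pknox2 (-0.70, edgeR adjusted p = 0.0193) and Meis1 (-0.60, adjusted p = 0.0254).

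Of the genes that make, break down or sense retinoic acid, the signal known to switch on anterior Hox genes, 13 of 18 were tested between the WT tissues, with 8 called higher and 3 lower in lung (beside 77.0% of all genes tested called in either direction). Among them were Aldh1a1, a synthesis enzyme, with a log2 difference of 4.82, Cyp26b1, a breakdown enzyme (3.78), and on the other side the receptor Rxra (-1.88). Crabp1, a retinoic acid carrier also called higher, had 21, 11 and 14 reads in WT lung and none in WT liver. In null lung against null liver the counts were 8 higher and 2 lower of 14 (beside 45.8% in either direction). Of 13 tested between null and WT liver, Rxra alone was called, higher by 0.48 (edgeR adjusted p = 0.0482, beside 26.9% of all genes tested), joined without null liver 1 (beside 23.8%) by the breakdown enzymes Cyp26a1 (2.41, adjusted p = 0.0253) and Cyp26b1 (1.74, adjusted p = 0.0287). Without the library labelled null lung 1, null lung against WT lung gave 3 called higher and 3 lower of 16 (beside 37.0% in either direction), led by Crabp1 (1.69, edgeR adjusted p = 0.00667), and with it none of 16, 3 of them at an unadjusted p below 0.05.

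Polycomb proteins keep Hox genes silent and MLL and trithorax proteins keep them active. Of 18 Polycomb genes, 10 were called higher and 5 lower in WT lung than in WT liver, and of 10 MLL and trithorax genes 4 and 4, beside 77.0% of all genes tested called in either direction. Between null and WT liver, 5 Polycomb genes were called higher and 3 lower (4 and 1 without null liver 1), beside 26.9% and 23.8% of all genes tested, with Ezh2, the histone methyltransferase of the complex, at -1.20 (edgeR adjusted p = 0.00791), Rnf2 at 0.99, Cbx8 at -0.92 and Cbx2 at 0.91, and 1 MLL and trithorax gene, Kdm6a, which removes the Polycomb mark, at 1.13 (edgeR adjusted p = 0.0193). Neither list had a gene called by edgeR between null and WT lung with all libraries, where 10 of 18 and 1 of 10 had an unadjusted p below 0.05. Without the library labelled null lung 1, 9 Polycomb genes were called higher and 2 lower, and 1 MLL and trithorax gene in each direction, beside 37.0% in either direction. Between null lung and null liver the counts were 4 higher and 3 lower for Polycomb and 0 higher and 2 lower for MLL and trithorax genes, beside 45.8% in either direction. For the MLL and trithorax genes they were 3 and 4 without the library labelled null lung 1, beside 60.7%.

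Of 13 genes next to or antisense to the Hox clusters, 11 were in the tables and 3 passed the filter between the WT tissues, all called higher in lung (beside 39.8% of all genes tested). These were Hoxaas2 and Hotairm1, with log2 differences of 4.0 and 2.43, and Hoxb5os, with 58, 39 and 33 reads in WT lung and 0, 0 and 1 in WT liver. They lie antisense to Hox genes, Hoxb5os to Hoxb5 and Hoxaas2 to Hoxa3, and how the counting treated strand is not given in the sources used here, so their reads and those of the Hox genes cannot be told apart. None of these RNAs was called in null against WT of either tissue, and 2 of 2 tested were called higher in null lung than in null liver (beside 24.2%). The 6 ParaHox and Cdx genes, relatives of the Hox genes of which some are known from gut and pancreas, were all in the tables and none passed the filter in any comparison.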

How the data were processed

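Polyadenylated RNA of 12 libraries (4 groups of 3) had been made into stranded libraries and sequenced as paired 75-base reads. Per the labels, the submitters' notes name FastQC, STAR 2.5.2a, DESeq2 and build mm10, and the program and strand setting that counted reads per gene are not given in the sources used here. The authors deposited raw counts per gene, used as deposited, with no other unit. Of 24421 gene rows, 27 have date-like names (gene symbols altered by a spreadsheet), none a Hox gene. Totals of 26759463 to 42914295 counts set the precision.

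Genes were filtered with filterByExpr, scaled by TMM and tested with edgeR 4.0.16 (quasi-likelihood F test, R 4.3.3) on the libraries of each comparison, with p-values adjusted over all genes tested and calls at an adjusted p below 0.05 and a 1.2-fold change, the cut-off of the study. DESeq2 1.42.0 was an alternative, with other scalings, filters, single left-out libraries, 1 fit of all libraries and a replicate block. The test code was tested on simulated data. Exon lengths, overlaps and coordinates came from GENCODE M21, promoters from RefSeq (GRCm38.p6), and exact tests used scipy 1.17.1.

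The members and lists were chosen with earlier results of these data known. Values in every library are given for Hox genes among the 3 highest of a cluster by CPM per kilobase in WT lung or liver, for those called in null against WT (with or without null library 1) or in the interaction, and for a few others named after their values were seen (the Hox genes of the libraries numbered 1, Hoxa13 and Hoxb7). List genes are named when called, at most 4 per list. Results of a few single genes are not reported here. Lung and liver libraries of the same number deviated together from their group means (correlations 0.110 to 0.160 in WT and 0.334 to 0.424 in null). The best correlation of a lung library with a liver library of another number was -0.0537 to -0.0237 in WT. For null lung 1 to 3 it was -0.289, 0.161 and 0.222. Both null libraries numbered 1, which share muscle markers, enter the null group means, so the null correlations are not clear evidence of pairs. A replicate block was run as an alternative. Leaving out both null libraries numbered 1 was an alternative chosen after seeing the data.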

Additional observations from a re-analysis of the deposited data

Results flagged for a closer look

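The Hoxa5 log2 fold change of null over WT was lower in lung than in liver by -1.886 in edgeR's interaction test without both null libraries numbered 1 (adjusted p = 0.0275). With all 12 libraries the difference was -2.253 and did not pass the threshold (edgeR adjusted p = 0.187). Every null lung lay below every WT lung, as for 19.6% of all genes tested, and every null liver above every WT liver, as for 23.1%. The null lungs include the library labelled null lung 1, which was low in most lung markers. The Hoxa9 difference without both null libraries numbered 1 was -3.382 (edgeR adjusted p = 0.0392).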

How the results depend on the processing

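The count of Hox genes called higher in WT lung was 15 and changed to 9 with at least 10 counts asked of every library, because fewer genes were then tested (9), and lay between 14 and 16 with single libraries left out. The null lung against null liver count was 9 and became 14 with all 12 libraries in 1 fit and 14 without both libraries numbered 1, with 7 to 11 for single libraries left out. In null against WT lung it was 0, with 2 by DESeq2 and 0 to 6 for single libraries left out, 6 without null lung 1. In null against WT liver it was 2, with 1 on total counts, by DESeq2, with at least 10 counts, with at least 1 count and with a replicate block, 0 with all 12 libraries in 1 fit, and 0 to 2 for single libraries left out. The interaction count was 0, with 1 by DESeq2, 2 without both libraries numbered 1 and 0 to 2 for single libraries left out. Over all genes, the calls of null against WT lung went from 51 to 2355 by DESeq2, 5881 without null lung 1 and 0 without any other single lung library. On total counts the higher and lower calls over all genes went from 3751 and 3345 to 7832 and 1686 in null lung against null liver, from 1931 and 1925 to 1069 and 2284 in null against WT liver and from 14 and 37 to 50 and 267 in null against WT lung. The sign of Hoxd4 in null against WT lung turned from 0.54 to -2.63 without null lung 1 (up to 1.09 without null lung 2) and to -0.64 with the replicate block. The mean paralog number of WT lung was 4.208 on reads, against 4.277 per kilobase. The block gave 11 calls in null lung against null liver and left the other Hox counts (15, 0 and 0) as they were, and null and WT libraries of the same number did not deviate together (correlations -0.101 to 0.116). In null against WT the block joins different pups by number alone, so its results there rest on an arbitrary pairing. Under the alternatives, the values of single genes, the cluster and paralog shares and the null mean paralog numbers were counted together. Of these, 29 came past the threshold, 22 fell below it and 2 turned sign. Another 41 values without a test moved by more than their spread, and 529 did none of these. Liver holds 288 to 592 Hox reads a library, which limits what could be detected of its rare Hox genes. Where a cause is not named, the cause was not tested.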
